A study of Mus musculus with 21 samples.

Results

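The genes described are the 4 ErbB receptor genes Egfr, Erbb2, Erbb3 and Erbb4 and 2 genes of their ligands, Nrg1 (neuregulin 1) and Hbegf (heparin-binding EGF-like growth factor). They were taken by symbol from count tables that each list 48321 gene symbols, and all 6 were present in every table. All 6 also passed the filter on low counts, with 14311 genes tested in all, but Erbb4 did so only through the dimer libraries in which it is high. Erbb4 was picked because earlier results of these libraries placed it among the largest rises shared by the dimer lines, so its levels in those lines against lines without a dimer are a description and carry no test, and it is left out of every count of members that passed.

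RNA was sequenced from mouse C57BL/6 embryoid bodies, which are aggregates of differentiating embryonic stem cells, on day 3 of differentiation. Every line derives from A2loxCre embryonic stem cells, in which a coding sequence placed behind a doxycycline-responsive promoter can be switched on by the drug, here for the last 16 h before collection. The 7 groups of 3 samples were the A2loxCre parental line with doxycycline, the line carrying Twist1 monomer without doxycycline (the uninduced monomer line), the same line with doxycycline (the monomer line), and 4 dimer lines with doxycycline: Twist1 homodimer, and the dimers of Twist1 with Tcf3, Tcf4 or Tcf12. TWIST1 belongs to the basic helix-loop-helix transcription factors, and TCF3, TCF4 and TCF12 are E-proteins, the partners with which it forms heterodimers. The labels do not state how many clones stand for a line or whether the 3 samples of a group are separate differentiations. Line and construct cannot be told apart, and p-values measure only the spread between these samples.

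Total counts ran from 6648842 to 15999693 per library. Twist1 averaged 8.11 CPM (counts scaled by library size) in the parental line, 5.07 in the uninduced monomer line, 613 in the monomer line, 182 in the homodimer line and 39.4 to 55.2 in the heterodimer lines. Tcf4 rose in its own dimer line, while Tcf3 did not pass in the samples that carry the TCF3 label (edgeR adjusted p = 0.24). Tcf12 averaged 104 ± 14.7 CPM there and 93.1 ± 34.8 CPM in samples with the TCF12 label (SD, n = 3 each), so these names follow the labels only. Sample 1 labelled TCF12 dimer stands apart from the other 20 libraries. Its deviation from the group mean correlated with the exon length of genes (Spearman's rho -0.601 across 12993 genes, which are not independent), against 0.529 and 0.570 in the other samples of that group and -0.286 to 0.312 in the other 18 libraries. Values are therefore also given from a fit of 20 samples without it, where it changes a call. Of the marker lists, all 5 tested primitive streak genes fell against the parental line in each of the 6 other groups (edgeR), where 4.02% to 12% of all genes tested fell.

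ErbB receptors are tyrosine kinases of the cell surface that signal as pairs, chiefly through the Ras and MAP kinase and the PI3 kinase cascades. EGFR and ERBB4 bind ligands and have active kinases, ERBB2 has no known ligand of its own and is the favoured partner of the other members, and ERBB3 binds neuregulins but has a weak kinase and therefore acts with a partner. NRG1 binds ERBB3 and ERBB4, and HB-EGF binds EGFR and ERBB4. In the mouse embryo, NRG1 acting on ERBB2 and ERBB4 is known for the trabeculation of the heart, and ERBB3 for the neural crest and its glial descendants.

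The stretches upstream of the Erbb4 and Erbb2 start sites are shown because both receptor genes were higher in all 4 dimer lines than in the monomer line and because TWIST1 and E-proteins are known to bind the E-box, whose letters are CANNTG on either strand. Against the parental line, however, Erbb2 passed in none of the 4 dimer lines (edgeR adjusted p 0.23 to 0.98). It averaged 16.8 CPM in the monomer line without doxycycline and 16.4 with it. RefSeq start sites (GRCm38.p6) were matched for 3 of the 6 genes, namely Erbb4, Egfr and Erbb2, and the 250 bases before each were searched. Capitals mark a match.
Erbb4, chr1:69108060-69108309, minus strand: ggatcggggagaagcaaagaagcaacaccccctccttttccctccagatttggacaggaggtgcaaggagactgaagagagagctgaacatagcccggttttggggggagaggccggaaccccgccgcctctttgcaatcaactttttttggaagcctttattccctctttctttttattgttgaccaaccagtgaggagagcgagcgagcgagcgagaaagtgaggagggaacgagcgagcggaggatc
Erbb2, chr11:98412234-98412469, plus strand: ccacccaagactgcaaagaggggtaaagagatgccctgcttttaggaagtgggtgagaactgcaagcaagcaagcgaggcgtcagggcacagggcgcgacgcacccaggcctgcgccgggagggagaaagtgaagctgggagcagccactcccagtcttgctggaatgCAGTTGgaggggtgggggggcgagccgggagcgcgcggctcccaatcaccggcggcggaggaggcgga
The Erbb4 stretch holds 0 matches, as does that of Egfr, and the Erbb2 stretch holds 1, CAGTTG, which begins 68 bases before the GENCODE start of the gene, where the printed stretch ends. The RefSeq start lies 14 bases further on, and those 14 bases were searched but are not printed. Over all 32851 windows of 250 bases, 66.2% hold at least 1 match. A match is a description of letters, not of a bound site, and the stretch without a match says nothing about sites elsewhere in the gene.

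Erbb4 encodes the receptor that binds both neuregulins and HB-EGF, and whose intracellular part can be released into the cell. It lies on chromosome 1, chr1:68032186-69108059 on the minus strand (GRCm38, GENCODE M21), with 12355 bases of exon. Its reads were few: the parental samples held 0, 0 and 0 counts, the uninduced monomer samples 0, 0 and 1, and the induced monomer samples 0, 0 and 1. The homodimer samples held 6, 6 and 5 counts. The samples labelled TCF3 dimer held 19, 3 and 19, those of the TCF4 dimer 13, 15 and 10, and those labelled TCF12 dimer 6, 18 and 12. Each of the 12 dimer libraries thus held at least 3 counts and each of the 9 other libraries at most 1.

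**Figure D1:**
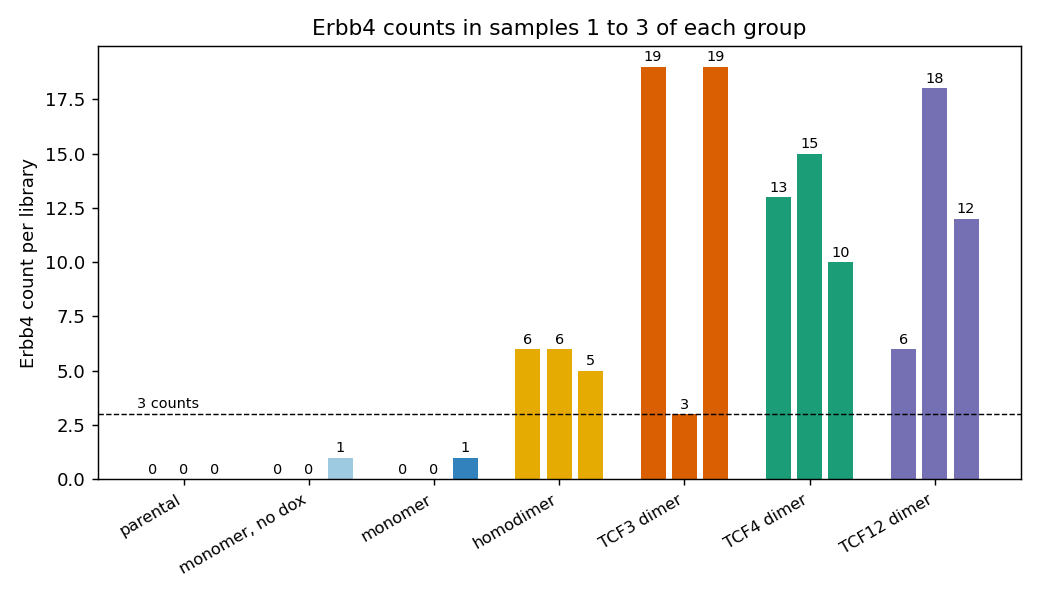
Erbb4 counts per library (vertical axis) in samples 1 to 3 of the 7 groups (horizontal axis), with a dashed line at 3 counts. The parental, uninduced and induced monomer libraries hold 0 or 1 count and the 12 dimer libraries 3 to 19.

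On the CPM scale, which divides counts by library size after TMM scaling, Erbb4 was at 0.648, 0.539 and 0.514 CPM in the homodimer samples. It was at 1.57, 0.265 and 1.55 CPM in the samples labelled TCF3 dimer, 1.02, 1.28 and 0.608 CPM with the TCF4 dimer, and 0.630, 1.48 and 0.969 CPM in those labelled TCF12 dimer. Group means ordered as 1.13 ± 0.747 CPM (TCF3 dimer), 1.03 ± 0.426 (TCF12 dimer), 0.971 ± 0.340 (TCF4 dimer) and 0.567 ± 0.0709 (homodimer), followed by 0.0358 ± 0.0621 in the monomer line, 0.0326 ± 0.0564 in the uninduced line and 0 in the parental line (SD, n = 3 each). Sample 2 labelled TCF3 dimer was lower than every other dimer library, and the heterodimer groups overlap throughout.

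In the parental line, 0 counts allow up to 0.106 CPM over the group (3 counts). The Erbb4 mean was 5.35-fold this floor in the homodimer line, 10.6-fold with the TCF3 dimer, 9.16-fold with the TCF4 dimer and 9.67-fold with the TCF12 dimer. The uninduced and the induced monomer line each held 1 count over their 3 libraries, beside 17 in the homodimer line, 41 with the TCF3 dimer, 38 with the TCF4 dimer and 36 with the TCF12 dimer. The floor covers counting error of the parental samples only. The counting error of the dimer samples is not included, so these folds are not lower limits. Across all tested genes, the samples did not overlap between a dimer line and the parental line in 36.0% (homodimer), 54.6% (TCF3), 41.2% (TCF4) and 33.3% (TCF12), and since Erbb4 was chosen on that contrast, nothing is read from its own separation.

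The differences in Erbb4 among the dimer lines were not used to choose it, but since its homodimer counts lie below the filter's count of 10, they are given as fitted values with no p. The 9 heterodimer samples averaged 1.04 ± 0.467 CPM (SD), against 0.567 ± 0.0709 in the 3 homodimer samples, a log2 difference of 0.87 ± 0.47 (SE, 95% interval -0.12 to 1.86, edgeR). Between heterodimer lines the log2 differences were 0.28 (95% interval -0.69 to 1.24) for TCF3 over TCF4, 0.16 (-0.83 to 1.14) for TCF12 over TCF4 and 0.12 (-0.85 to 1.10) for TCF3 over TCF12. Each of the 4 intervals of this fit includes 0 and also reaches beyond 1 on the log2 scale. A difference of that size in the upward direction is thus not excluded by it. Without sample 1 labelled TCF12 dimer, heterodimers over homodimer gave 0.93 (95% interval 0.07 to 1.80). That fit leaves out a heterodimer library with only 6 Erbb4 counts (0.630 CPM), so the interval is a description and nothing is read from its lower end. The intervals between heterodimer lines included 0 in that fit too, with -0.10 (-0.99 to 0.79) for TCF3 over TCF12.

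The sum of the mesenchyme and cardiac mesoderm list (8 genes, 5 tested) did not follow Erbb4 across all groups. Its summed level was 11.8 to 14.2 CPM in the parental samples, 10.8 to 11.2 in the homodimer samples, 22.9 to 29.6 with the TCF4 dimer, 41.2 to 48.7 with the TCF12 dimer and 64.5 to 81.8 with the TCF3 dimer, but also 45.9 to 49.2 in the monomer line and 44.6 to 53.6 in the uninduced line, where Erbb4 held 1 count each. Most of the sum in those lines was Pdgfra, the gene of a PDGF receptor, at 44.2 ± 2.27 CPM with and 43.9 ± 5.61 without doxycycline, against 9.38 ± 0.863 in the parental and 6.33 ± 0.318 in the homodimer line. The other tested genes were low there. Hand1 averaged 0.357, 0.432, 0.260 and 0.132 CPM in the parental, uninduced, monomer and homodimer lines, then 4.47, 2.65 and 10.6 with TCF3, TCF4 and TCF12. In that order Kdr averaged 2.17, 1.66, 2.15 and 2.65, then 15.4, 5.85 and 9.85. Snai2 averaged 0.176, 0.964, 0.962 and 0.937, then 7.65, 3.03 and 5.49. Hand2 averaged at most 0.194 outside the heterodimer lines and 1.59, 1.10 and 2.48 in them. Against the parental line, 5 of the 5 tested genes rose with the TCF3 and the TCF12 dimers, 4 with the TCF4 dimer (5 in the 20-sample fit), 2 in the monomer line with or without the drug, and 1 with the homodimer, in which 1 fell (edgeR). Of all genes tested, 16.3% (TCF3), 15.5% (TCF12), 7.18% (TCF4, 14.5% in the 20-sample fit), 10.8% (monomer), 10.5% (uninduced) and 4.81% (homodimer) rose. With the homodimer 4.02% fell. Tbx5 was at 0 in the monomer samples and Hand2 in the uninduced samples. In bulk RNA a change in the number of cells of a type and a change in RNA per cell cannot be told apart, and the part of such cells in the Erbb4 level was not tested.

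**Figure D2:**
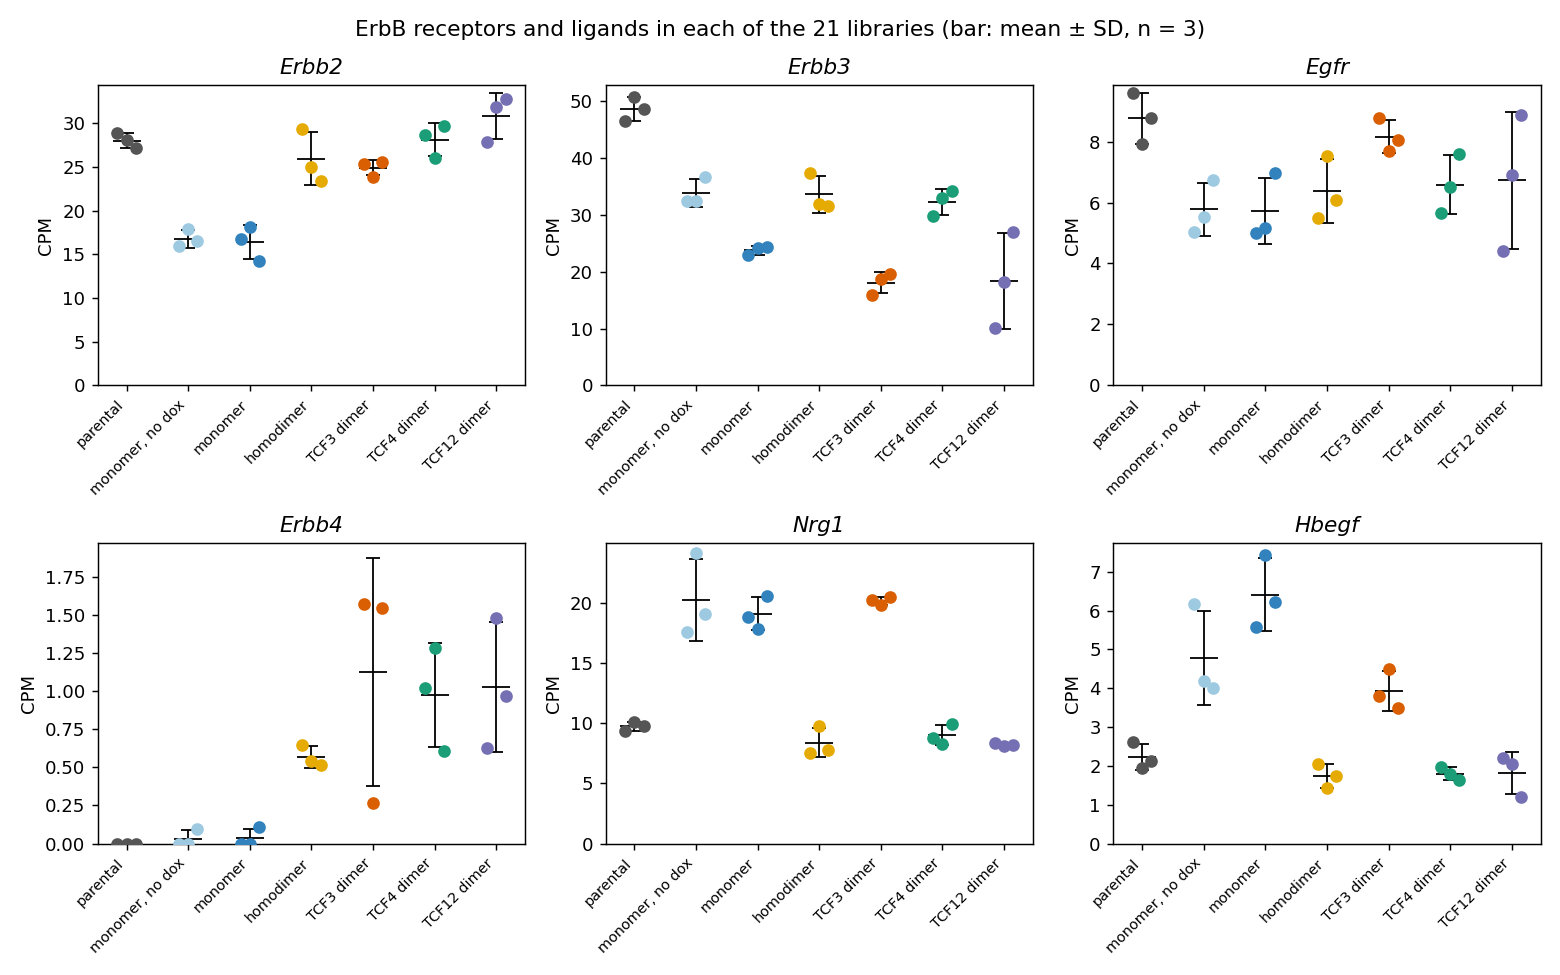
CPM (vertical axes, each from 0) of the 6 genes in each of the 21 libraries by group; points are samples, bars the mean ± SD (n = 3). Erbb2 is low only in the monomer line with or without doxycycline, Erbb3 is highest in the parental line, and Nrg1 and Hbegf are high in the monomer line and in the samples labelled TCF3 dimer.

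Erbb2, the partner receptor without a ligand, lies at chr11:98412470-98437716 on the plus strand with 5210 bases of exon. It was at 28.9, 28.1 and 27.1 CPM in the parental samples, 15.9, 17.9 and 16.5 in the uninduced monomer samples and 16.7, 18.1 and 14.3 in the induced monomer samples. The dimer samples were at 29.4, 25.04 and 23.5 CPM (homodimer), 25.4, 23.9 and 25.5 (TCF3), 28.7, 26.0 and 29.7 (TCF4) and 27.9, 31.9 and 32.8 (TCF12). The monomer line with or without the drug was below every other library, and the dimer lines lay around the parental level.

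Against the parental mean of 28.0 ± 0.871 CPM, Erbb2 fell by 0.78 ± 0.10 on the log2 scale in the monomer line (adjusted p = 1.8e-05) and by 0.74 ± 0.10 in the uninduced line (adjusted p = 4e-05, edgeR). In the dimer lines the log2 difference from the parental line was -0.11 (homodimer), -0.17 (TCF3), 0.01 (TCF4) and 0.14 (TCF12), with adjusted p of 0.66, 0.23, 0.98 and 0.29, none past the threshold of 0.05. Against the monomer line, Erbb2 rose in each dimer line, by 0.66 ± 0.10 (homodimer, adjusted p = 0.00012), 0.61 ± 0.10 (TCF3, 0.00027), 0.78 ± 0.10 (TCF4, 1e-05) and 0.92 ± 0.10 (TCF12, 1.3e-06) on the log2 scale (edgeR). The uninduced line as control gave rises of 0.57 to 0.88 in the same 4 lines (edgeR adjusted p up to 0.00034). Which control was used therefore decided the call for Erbb2, and the low level of the monomer line was present without doxycycline.

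Some exons of Erbb2 overlap those of Mien1 on the opposite strand. Whether counting used strand is not given in the sources used here, so how reads in the overlap were counted is unknown. For Mien1 itself the log2 difference from the parental line was -0.15 ± 0.25 for the induced and -0.13 ± 0.25 for the uninduced monomer line (edgeR adjusted p = 0.77 and 0.79). Genes of chromosome 11 as a whole (1117 tested) had a median log2 difference of 0.195 in the samples labelled TCF3 dimer against the monomer line (Erbb2 0.61), where all genes tested had -0.019. For the same samples the chromosome 11 median was 0.202 against the parental line, 0.197 against the TCF4 and 0.154 against the TCF12 dimer line. All genes tested had 0.013, -0.001 and -0.013 there. The part of these shifts in the values of Erbb2 and Egfr, which share the chromosome, was not tested.

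Egfr, the founding receptor of the family, which binds EGF, TGF-alpha and HB-EGF, lies at chr11:16752203-16918158 on the plus strand with 11326 bases of exon. It was at 9.59, 7.91 and 8.78 CPM in the parental samples, 5.04, 5.54 and 6.74 in the uninduced samples and 5.01, 5.18 and 6.99 in the monomer samples. The dimer samples were at 5.50, 7.54 and 6.07 CPM (homodimer), 8.76, 7.68 and 8.05 (TCF3), 5.66, 6.50 and 7.60 (TCF4) and 4.41, 6.89 and 8.88 (TCF12). Parental samples were above all monomer, uninduced, homodimer and TCF4 dimer samples, and only the TCF3 and TCF12 dimer samples overlapped them. Of all genes tested, 46.1% (monomer), 46.8% (uninduced), 36.0% (homodimer) and 41.2% (TCF4) did not overlap with the parental samples.

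Egfr fell in the monomer line by 0.61 ± 0.21 on the log2 scale (adjusted p = 0.046, edgeR), a call that was lost when any of the 3 parental samples or either of monomer samples 1 and 2 was left out (adjusted p 0.053 to 0.15) or counts were scaled by library size alone (0.059). The uninduced line differed from the parental line by -0.58 ± 0.21 (adjusted p = 0.058), the homodimer line by -0.45 ± 0.20 (0.21), the TCF4 dimer line by -0.40 ± 0.20 (0.22), the TCF12 dimer line by -0.36 ± 0.20 (0.18) and the TCF3 dimer line by -0.10 ± 0.19 (0.76). In the 20-sample fit the first 3 of these passed, at adjusted p of 0.006, 0.043 and 0.044 (edgeR). For the TCF12 dimer line, leaving out single samples moved the difference between -0.15 and -0.62, with -0.15 (adjusted p = 0.52) without its sample 1 and -0.62 (adjusted p = 0.019, past the threshold) without its sample 3. The lowest Egfr value of the dimer libraries, 4.41 CPM, is that of sample 1 labelled TCF12 dimer, which stands apart.

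Erbb3, the neuregulin receptor with the weak kinase, lies at chr10:128567523-128589652 on the minus strand with 6016 bases of exon. Its parental samples, at 46.5, 50.8 and 48.6 CPM, were the highest of the 21 libraries. The uninduced monomer samples were at 32.5, 32.4 and 36.6 CPM, the induced monomer samples at 22.9, 24.2 and 24.3, the homodimer samples at 37.4, 31.9 and 31.6, and the TCF4 dimer samples at 29.7, 33.0 and 34.2. The lowest values were those of the samples labelled TCF3 dimer, at 16.0, 18.7 and 19.5 CPM, and TCF12 dimer, at 10.1, 18.1 and 27.0. The TCF12 dimer samples span the range from the lowest library of all to above the monomer line.

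Against the parental mean of 48.7 ± 2.15 CPM, Erbb3 fell by 1.43 ± 0.20 on the log2 scale with the TCF3 dimer (adjusted p = 2e-05), by 1.39 ± 0.20 with the TCF12 dimer (4e-05, but 0.058 in a fit of those groups alone), by 1.03 ± 0.20 in the monomer line (0.00078) and by 0.59 ± 0.19 with the TCF4 dimer (0.048, edgeR). The TCF4 call was lost when any sample of its groups was left out (adjusted p 0.088 to 0.16), with library size alone (0.10), and against the uninduced line (-0.07, adjusted p = 0.83). The homodimer and uninduced lines differed by -0.53 ± 0.19 (adjusted p = 0.10) and -0.52 ± 0.19 (0.068). Without sample 1 labelled TCF12 dimer, the common biological coefficient of variation of the fit went from 0.120 to 0.0539 and Erbb3 was lower than in the parental line in all 6 groups, with edgeR adjusted p of 7.1e-05 or less, and its fall in the TCF12 dimer line became 1.11.

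Erbb3 also separated dimer lines from each other. It was lower with the TCF3 than with the TCF4 dimer by 0.84 ± 0.20 on the log2 scale (adjusted p = 0.0051, edgeR), and lower with the TCF12 than with the TCF4 dimer by 0.80 ± 0.20 (adjusted p = 0.035), a call lost when any TCF4 dimer sample was left out (adjusted p 0.063 to 0.15) or only these groups were fitted (0.63), and which stood at -0.52 (adjusted p = 0.0038) without sample 1 labelled TCF12 dimer. As a class, the heterodimers were below the homodimer by 0.60 ± 0.16 (adjusted p = 0.013, edgeR), which gave 0.096 without homodimer sample 1 and 0.089 in a fit of those groups alone. The members of the class are unequal, and the TCF4 dimer samples (29.7 to 34.2 CPM) overlap the homodimer samples (31.6 to 37.4).

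Epithelial markers are given beside Erbb3. Their summed level (7 genes, all tested) was 1753 to 1863 CPM in the parental samples, 1725 to 1784 with the TCF4 dimer, 1647 to 1733 in the homodimer samples, 1551 to 1640 in the uninduced samples, 1523 to 1599 in the monomer samples, 1337 to 1514 with the TCF12 dimer and 1236 to 1396 with the TCF3 dimer. Of the 7 genes, 6 fell with the TCF3 dimer, 5 with the TCF12 dimer, and 1 each with the TCF4 dimer and the homodimer against the parental line (edgeR). Of all genes tested, 12% (TCF3), 11.5% (TCF12), 5.67% (TCF4), 4.02% (homodimer), 9.22% (monomer) and 9.43% (uninduced) fell. In the monomer line 10.8% of all genes rose. In the monomer line, where Erbb3 fell by 1.03, 1 rose and 2 fell with a median log2 difference of -0.05, and without doxycycline 0 rose and 1 fell with a median of 0.03. The 20-sample fit called 1 higher and 6 lower with the TCF3 dimer, 0 and 6 with the TCF12 dimer and 1 and 3 with the TCF4 dimer. It called 1 and 2 with the homodimer, 2 and 3 in the monomer line and 3 and 2 without the drug. Over these groups, that fit called 10.6% to 24% of all genes higher and 9.84% to 22.4% lower. The epithelial cadherin gene Cdh1 fell by 0.48 and 0.33 on the log2 scale with the TCF3 and TCF12 dimers (edgeR adjusted p = 0.0013 and 0.021), and by 0.43 and 0.41 in the monomer line with and without doxycycline (0.0046 and 0.0067). No marker of the list was at 0, and the part of epithelial cells in the Erbb3 level was not tested.

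**Figure D3:**
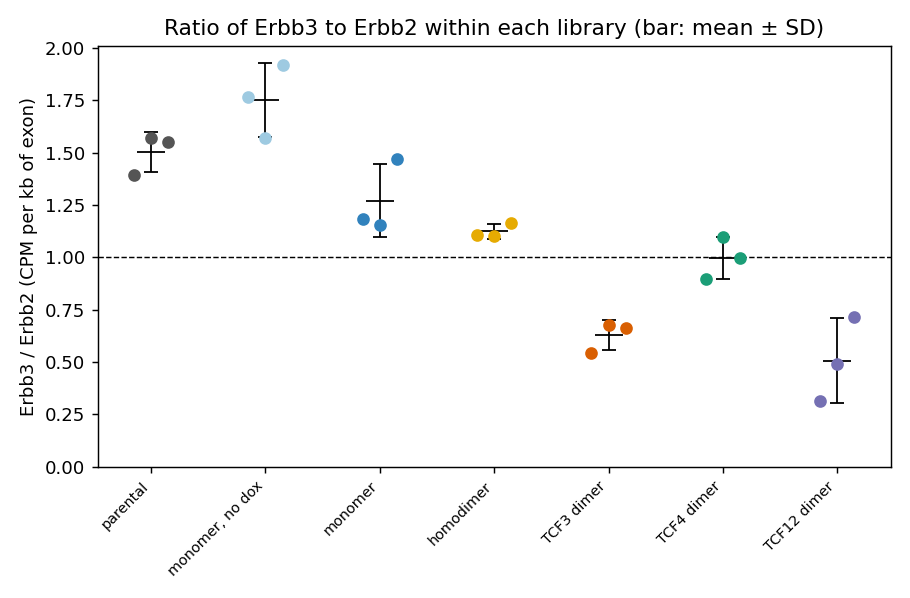
Ratio of Erbb3 to Erbb2, each in CPM per kb of exon (vertical axis), in each library by group; points are samples and bars the mean ± SD (n = 3), and the dashed line marks equal levels. The ratio is above 1 in all parental, uninduced, monomer and homodimer samples and between 0.313 and 0.715 in the samples labelled TCF3 or TCF12 dimer.

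Levels of different receptors were compared per kb of exon. In the parental line Erbb3 stood at 8.09 CPM per kb, Erbb2 at 5.38 and Egfr at 0.774, while Erbb4 reached at most 0.0912 in any group. The ratio of Erbb3 to Erbb2 within a library averaged 1.51 ± 0.0954 in the parental line, 1.75 ± 0.176 without doxycycline and 1.27 ± 0.174 with it in the monomer line, and 1.12 ± 0.0362 in the homodimer line (SD, n = 3). With the TCF4 dimer it was 0.998 ± 0.101, with the TCF3 dimer 0.628 ± 0.0727 and with the TCF12 dimer 0.506 ± 0.201. Erbb3 was thus the more abundant of the pair per length in the parental and monomer lines and Erbb2 in the samples labelled TCF3 and TCF12 dimer. The ratios are given as a description, with no test.

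Nrg1 encodes the main neuregulin ligand of ERBB3 and ERBB4 and lies at chr8:31814551-32884029 on the minus strand with 10351 bases of exon. It was at 9.37, 10.1 and 9.79 CPM in the parental samples, 17.6, 24.1 and 19.1 in the uninduced samples and 18.9, 17.9 and 20.6 in the monomer samples. The samples labelled TCF3 dimer were at 20.3, 19.9 and 20.5 CPM. The homodimer samples (7.55, 9.78 and 7.82 CPM), the TCF4 dimer samples (8.81, 8.30 and 9.98) and the TCF12 dimer samples (8.39, 8.12 and 8.23) were near or below the parental level. The libraries thus form a high set of 9 and a low set of 12 that do not overlap.

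Against the parental mean of 9.75 ± 0.356 CPM, Nrg1 rose by 1.06 ± 0.12 on the log2 scale in the uninduced line (adjusted p = 3.2e-06), by 0.97 ± 0.12 in the monomer line (8.1e-06) and by 1.05 ± 0.12 with the TCF3 dimer (1.7e-06, edgeR). Against the uninduced line, the TCF3 dimer line differed by -0.01 (adjusted p = 0.95). Nrg1 did not pass against the parental line in the homodimer (-0.21), TCF4 dimer (-0.11) or TCF12 dimer line (-0.24). Against the monomer line it fell by 1.18 in the homodimer line, by 1.08 with the TCF4 dimer and by 1.21 with the TCF12 dimer (edgeR adjusted p of 1.3e-06 or less), and differed by 0.08 with the TCF3 dimer (adjusted p = 0.69). The TCF3 dimer line exceeded the TCF4 dimer line by 1.16 ± 0.12 (adjusted p = 8.2e-07) and the TCF12 dimer line by 1.29 ± 0.12 (4.1e-07). Genes of chromosome 8 as a whole (740 tested), which holds Nrg1, had shifted medians too. Against the parental line these were -0.098 (monomer), -0.105 (uninduced) and -0.071 (TCF3) on the log2 scale. Against the monomer line they were 0.172 (homodimer), 0.196 (TCF4) and 0.232 (TCF12). All genes tested had 0.001 to 0.046 in these contrasts. The part of these shifts in the Nrg1 values was not tested.

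Hbegf, a ligand made as a membrane-bound form that ADAM proteases release, lies at chr18:36504927-36515805 on the minus strand with 4834 bases of exon. It was at 2.62, 1.95 and 2.12 CPM in the parental samples, 6.18, 4.18 and 4.005 in the uninduced samples and 5.58, 7.43 and 6.23 in the monomer samples. With the TCF3 dimer it was at 3.80, 4.50 and 3.50 CPM, with the homodimer at 2.05, 1.44 and 1.75, with the TCF4 dimer at 1.97, 1.80 and 1.64, and with the TCF12 dimer at 2.20, 2.05 and 1.21. The same 9 libraries as for Nrg1 were above all others, but here the TCF3 dimer samples lay below all induced monomer samples. Between those 2 groups 50.5% of all genes tested did not overlap.

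Hbegf rose over the parental line by 1.52 ± 0.22 on the log2 scale in the monomer line (adjusted p = 3.6e-05), by 1.06 ± 0.23 in the uninduced line (0.0021) and by 0.82 ± 0.22 with the TCF3 dimer (0.0093, edgeR), the last of which was at adjusted p = 0.051 without parental sample 2. Against the uninduced line, the TCF3 dimer line differed by -0.25 (adjusted p = 0.40). Against the monomer line Hbegf fell by 1.88 (homodimer), 1.83 (TCF4) and 1.83 (TCF12), with edgeR adjusted p of 5.2e-06 or less, and by 0.71 ± 0.19 with the TCF3 dimer (0.012). That last call was lost without monomer sample 2, TCF3 dimer sample 1 or TCF3 dimer sample 3 (adjusted p 0.052 to 0.070). The TCF3 dimer line exceeded the TCF4 dimer line by 1.13 ± 0.22 (adjusted p = 0.00099) and the TCF12 dimer line by 1.12 ± 0.22 (0.0019, but 0.12 in a fit of those groups alone).

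Extraembryonic endoderm markers are given beside the ligand genes. Their summed level (8 genes, 7 tested) was 173 to 192 CPM in the parental samples, 526 to 609 in the uninduced samples, 481 to 527 in the monomer samples and 291 to 344 with the TCF3 dimer, against 108 to 125 with the homodimer, 80.9 to 92.2 with the TCF4 dimer and 96.3 to 111 with the TCF12 dimer. Of all genes tested against the parental line, 10.8% (monomer), 10.5% (uninduced, 18.7% in the 20-sample fit) and 16.3% (TCF3) rose. Those that fell were 4.02% (homodimer, 9.84% in the 20-sample fit), 5.67% (TCF4) and 11.5% (TCF12). Among the tested markers, 5 of the 7 rose in the monomer, uninduced (6 in the 20-sample fit) and TCF3 dimer lines, and 6 (homodimer, 7 in the 20-sample fit), 7 (TCF4) and 7 (TCF12) fell (edgeR). The 2 others fell with the TCF3 dimer: Foxa2, an endoderm transcription factor, from 13.2 ± 1.93 to 7.40 ± 1.42 CPM (-0.83 on the log2 scale, adjusted p = 0.0038) and Ttr, the transthyretin gene, from 9.05 ± 0.325 to 4.50 ± 1.22 (-1.01, adjusted p = 0.0048). Gata6, a regulator of this lineage, rose by 1.93 on the log2 scale in the monomer line, 1.83 in the uninduced line and 1.17 with the TCF3 dimer, and fell by 1.24, 1.41 and 1.73 in the homodimer, TCF4 and TCF12 dimer lines. No marker of the list was at 0 in any group, and the part of endoderm cells in the Nrg1 and Hbegf levels was not tested.

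**Figure D4:**
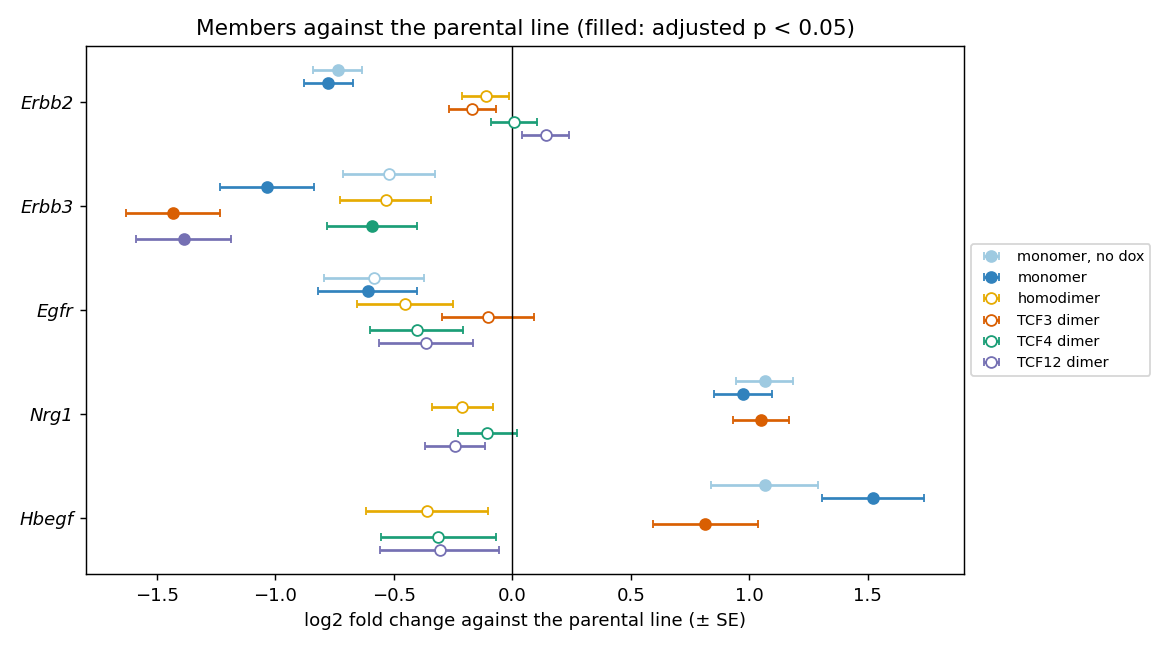
Log2 fold change against the parental line (horizontal axis, ± SE) of the 5 genes tested in that contrast (vertical axis), by group; filled points passed at adjusted p under 0.05 in the fit of 21 samples. Nrg1 and Hbegf lie to the right in the monomer, uninduced and TCF3 dimer lines, and Erbb3 lies left of 0 in all 6 groups.

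Of the 5 genes other than Erbb4, 5 passed against the parental line in the monomer line (20% of all genes tested passed), 3 in the uninduced line (19.9%), 3 with the TCF3 dimer (28.3%), 1 with the TCF4 dimer (12.9%) and 1 with the TCF12 dimer (27.0%). The homodimer line had 0 of 5 by edgeR (8.84% of all genes) and 0 by DESeq2, with 2 at an unadjusted p under 0.05. In the 20-sample fit the counts were 5, 5, 3, 2, 1 and 2 in the same order of lines, beside 35.2%, 36.8%, 46.5%, 28.1%, 30.3% and 20.4% of all genes. These comparisons share the parental samples, so their likeness is not an independent result.

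Induction of the monomer was the comparison within a single line. Of the 5 genes other than Erbb4, 0 passed between the monomer line with and without doxycycline (edgeR, where 2% of all genes passed), 2 had an unadjusted p under 0.05, and DESeq2 called 0. Erbb3 differed by -0.51 ± 0.20 on the log2 scale (edgeR adjusted p = 0.34). All 3 induced samples (22.9 to 24.3 CPM) were below all 3 uninduced ones (32.4 to 36.6), and 21.5% of all genes tested did not overlap in this contrast. Erbb3 alone of the 5 passed in the 20-sample fit, at -0.52 (edgeR adjusted p = 0.0018), beside 6.17% of all genes. Hbegf differed by 0.46 ± 0.20 (adjusted p = 0.43) with overlapping samples. Egfr, Erbb2 and Nrg1 differed by -0.03, -0.04 and -0.09. In the same contrast Twist1 itself rose by 6.90 on the log2 scale, while Erbb2, Nrg1 and Hbegf already differed from the parental line without the drug.

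Against the monomer line, 3 of 5 genes passed in the homodimer line (18.5% of all genes), 2 with the TCF3 dimer (22.1%), 3 with the TCF4 dimer (27.4%) and 3 with the TCF12 dimer (33.5%). In the homodimer, TCF4 and TCF12 dimer lines these were Erbb2 upward and Nrg1 and Hbegf downward. In the TCF3 dimer line they were Erbb2 upward and Hbegf downward. The 20-sample fit called 4 of 5 in each, beside 33.3% (homodimer), 40.9% (TCF3), 45.5% (TCF4) and 42.4% (TCF12) of all genes. There Erbb3 joined with the homodimer (0.51, adjusted p = 0.00031) and the TCF4 dimer (0.45, 0.00053), Egfr with the TCF12 dimer (0.47, 0.034), and both with the TCF3 dimer (Egfr 0.51, adjusted p = 0.012, and Erbb3 -0.40, 0.0055, edgeR).

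Between dimers, 2 of the 5 genes other than Erbb4 passed for heterodimers against the homodimer (14.0% of all genes), 3 for TCF3 against TCF4 (19.7%), 1 for TCF12 against TCF4 (3.24%) and 3 for TCF3 against TCF12 (18.8%), and the joint test among the 3 heterodimers called 3 of 5 (26.0%). In the 20-sample fit the counts were 2, 3, 1, 4 and 4 in the same order, beside 28.9%, 40.4%, 4.76%, 25% and 40.1% of all genes, with Erbb3 joining for TCF3 against TCF12 (-0.33, adjusted p = 0.043) and Erbb2 in the joint test (0.0030). The joint test gave adjusted p of 1.4e-07 for Nrg1, 0.00074 for Hbegf, 0.0047 for Erbb3, 0.061 for Erbb2 and 0.36 for Egfr (edgeR). In a fit of the heterodimer groups alone the joint call of Erbb3 was lost (edgeR adjusted p = 0.14), leaving 2 of 5 beside 6.57% of all genes. The joint test by DESeq2 also called Erbb2 (adjusted p = 0.039), giving 4 of 5 beside 30.9%. Nrg1 was higher in heterodimers than in the homodimer by 0.45 ± 0.10 on the log2 scale (adjusted p = 0.0061), although only the samples labelled TCF3 dimer lay clear of the homodimer samples. Without homodimer sample 1 that call and that of Erbb3 were lost (0 of 5 passed), and without homodimer sample 3 that of Nrg1 (adjusted p = 0.057). Erbb2 was lower with the TCF3 than with the TCF12 dimer by 0.31 ± 0.10 (adjusted p = 0.035). This call was lost without any TCF3 dimer sample or without TCF12 dimer sample 2 or 3 (adjusted p 0.092 to 0.10), as well as with library size alone (0.18), no filter (0.11) or only these groups (0.31).

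Of 9 other EGF-family ligand genes, 4 were tested (Egf, Tgfa, Nrg2 and Nrg4), and the 5 others never exceeded 9 counts in a library. Nrg2, which encodes another neuregulin, was at 2.16 ± 0.345 CPM in the parental line, 11.9 ± 2.28 in the uninduced line, 9.21 ± 0.767 in the monomer line, 4.89 ± 0.358 with the TCF3 dimer and 0.656 ± 0.293 with the TCF12 dimer (SD, n = 3). The log2 differences from the parental line were 2.43, 2.09, 1.18 and -1.67 (edgeR adjusted p of 0.0016 or less), and Nrg2 did not pass in the homodimer (-0.97) and TCF4 dimer lines (-0.73). Tgfa, which encodes a ligand of EGFR, moved the other way in the monomer line, from 10.4 ± 0.812 CPM in the parental line to 5.66 ± 0.690, a fall of 0.87 on the log2 scale (adjusted p = 4.3e-05). It fell by 0.76 in the uninduced line, 0.54 with the TCF3 dimer and 0.65 with the TCF12 dimer. In the 21-sample fit Egf passed only with the TCF12 dimer, at 0.438 against 1.17 CPM, and Nrg4 in none of the 6 groups. The 20-sample fit called 2 of the 4 lower with the homodimer and 1 with the TCF4 dimer, beside 9.84% and 13.5% of all genes.

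Proteases that release ligands or cut receptors form a list of 14 genes, of which 12 were tested. The counts higher and lower than in the parental line were 3 and 0 in the monomer line both with and without the drug, 5 and 0 with the TCF3 dimer, 2 and 0 with the TCF4 dimer, 3 and 1 with the TCF12 dimer, and 0 and 0 with the homodimer (edgeR). The 20-sample fit gave 6 and 2 with the TCF12 dimer, 6 and 0 with the TCF3 dimer, 4 and 2 with the TCF4 dimer, 0 and 2 with the homodimer, 3 and 1 in the monomer line and 4 and 1 in the uninduced line. In the same order, 15.7% and 14.6%, 24% and 22.4%, 14.5% and 13.5%, 10.6% and 9.84%, 18.1% and 17.1%, and 18.7% and 18.1% of all genes were higher and lower. The list's median log2 difference lay between -0.03 (homodimer) and 0.22 (TCF3), beside 0.00 to 0.02 for all genes tested. Adam19, a metalloprotease known to process neuregulin, rose from 31.0 ± 3.06 CPM in the parental line to 147 ± 9.59 with the TCF3 dimer, 2.25 ± 0.21 on the log2 scale (adjusted p = 1.9e-07), and by 1.64, 1.32 and 1.22 in the monomer, TCF12 and TCF4 dimer lines and 0.62 in the uninduced line. It also rose on induction of the monomer, by 1.02 ± 0.21 (adjusted p = 0.0094). Adam10, a sheddase of several ErbB ligands, rose by 0.69 with the TCF3 dimer and 0.34 in the monomer line, while Adam17, which releases HB-EGF, passed in no group (log2 differences from -0.31 to 0.13).

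Of adaptors and ubiquitin ligases that act next to the receptors (17 genes, 16 tested), 2 to 5 rose and 0 to 3 fell in each induced line, and 0 rose and 2 fell in the uninduced line. Over the 6 groups, 4.81% to 16.3% of all genes tested rose and 4.02% to 12% fell. The 20-sample fit called 2 to 6 higher and 2 to 7 lower over the 6 groups, beside 10.6% to 24% and 9.84% to 22.4% of all genes. Gab2, a docking protein that carries PI3 kinase to receptors, rose in all 5 induced lines: from 1.30 ± 0.284 CPM in the parental line to 6.22 ± 1.07 with the TCF3 dimer (2.24 on the log2 scale), 4.37 ± 0.949 with TCF12 (1.74), 3.67 ± 0.446 with TCF4 (1.49), 3.56 ± 0.581 with the homodimer (1.44) and 2.92 ± 0.374 with the monomer (1.16). Without doxycycline its difference was 0.11. Cblb, a ubiquitin ligase that marks receptors for degradation, rose with the 3 heterodimers, by 1.26, 0.96 and 0.76 for TCF3, TCF12 and TCF4, and differed by 0.19 with the homodimer. Grb7, an adaptor that binds ERBB2, fell by 0.63 with TCF3, 0.50 with TCF12 and 0.25 in the monomer line.

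Of the Ras, MAP kinase and PI3 kinase core (23 genes, all tested), at most 4 rose and 1 fell in any group against the parental line, and at most 9 rose and 6 fell in the 20-sample fit. Over these groups, 4.81% to 16.3% of all genes tested rose and 4.02% to 12% fell, and in the 20-sample fit 10.6% to 24% and 9.84% to 22.4%. The counts were not tested against these shares. The list's median log2 difference lay between -0.03 and 0.08, beside medians of 0.00 to 0.02 for all genes tested. Pik3r1, a regulatory subunit of PI3 kinase, rose from 22.3 ± 1.91 CPM to 40.7 ± 3.40 with the TCF3 dimer (0.87 on the log2 scale, edgeR adjusted p = 0.00046) and 35.4 ± 3.59 in the monomer line (0.66), and by 0.53 with the TCF12 dimer. Pik3cb, a catalytic subunit of PI3 kinase, rose to 67.3 ± 4.41 CPM with the homodimer from 26.3 ± 2.42, 1.35 on the log2 scale, and by 1.13 in the monomer line, 0.68 with the TCF3 dimer and 0.67 in the uninduced line.

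Feedback inhibitors of the pathway (14 genes, all tested) passed in both directions in each group, with 2 to 5 higher and 1 or 2 lower. Of all genes tested, 4.81% (homodimer) to 16.3% (TCF3) were higher and 4.02% (homodimer) to 12% (TCF3) lower. The counts were not tested against these shares. The 20-sample fit called 9 higher and 1 lower with the TCF3 dimer, 6 and 1 with TCF12, 5 and 2 with TCF4, 3 and 3 with the homodimer and the monomer, and 5 and 4 in the uninduced line. In that fit 10.6% (homodimer) to 24% (TCF3) of all genes were higher and 9.84% to 22.4% lower. The list's median log2 difference lay between -0.02 (uninduced) and 0.25 (TCF3). Spred1, an inhibitor of the Ras to MAP kinase step, rose from 55.4 ± 4.54 CPM to 159 ± 25.6 with TCF3 (1.52), 112 ± 18.6 with TCF12 (1.02) and 91.6 ± 12.9 with TCF4 (0.73), and differed by 0.04 with the homodimer (edgeR). Lrig1, which promotes the breakdown of ErbB receptors, rose by 1.02 with the TCF3 dimer and fell by 0.87 in the monomer line, by 0.76 without doxycycline and by 0.57 with the homodimer. Spry2 fell by 0.90, 0.88, 0.60 and 0.35 with TCF12, TCF4, the homodimer and TCF3, and rose by 0.36 in the uninduced line. Dusp6, a phosphatase of MAP kinases, rose by 0.55, 0.43 and 0.34 with the homodimer, TCF12 and TCF4, and its differences of 0.06 (TCF3), -0.02 (monomer) and 0.19 (uninduced) did not pass.

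Of early-response and ETS genes (14 genes, 12 tested), 2 were higher and 5 lower than in the parental line with the TCF12 dimer. The counts were 1 and 3 with TCF4, 2 and 1 with TCF3, the homodimer and the monomer, and 3 and 0 in the uninduced line. Over these groups, 4.81% to 16.3% of all genes tested were higher and 4.02% to 12% lower than in the parental line. The 20-sample fit called 2 to 5 higher and 0 to 5 lower, beside 10.6% to 24% and 9.84% to 22.4% of all genes. Jun rose with the 3 heterodimers, from 15.3 ± 0.903 CPM to 43.2 ± 4.76 (TCF3), 36.8 ± 5.29 (TCF12) and 32.7 ± 3.13 (TCF4), and differed by 0.12 on the log2 scale with the homodimer. The heterodimers exceeded the homodimer in Jun by 1.16 ± 0.10 (adjusted p = 1.6e-07, edgeR). Ccnd1, the cyclin D1 gene, fell in all 5 induced lines, by 0.60 to 1.03. Of 6 tested partners of the released ERBB4 domain and targets of YAP, at most 1 rose and 2 fell in any group (2 and 4 in the 20-sample fit), and Yap1 itself fell by 0.30 with the TCF3 dimer. Against the monomer line, 7 early-response and ETS genes fell with TCF12 (15.5% of all genes), 6 with TCF4 (13%), 6 with TCF3 (9.36%) and 3 with the homodimer (9.31%). In that order 2, 1, 1 and 0 rose, beside 18.1%, 14.5%, 12.7% and 9.15% of all genes (edgeR). The 20-sample fit called 8, 7, 8 and 5 lower, beside 20.1%, 21.5%, 20.6% and 16% of all genes, and 1 higher in each.

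**Figure D5:**
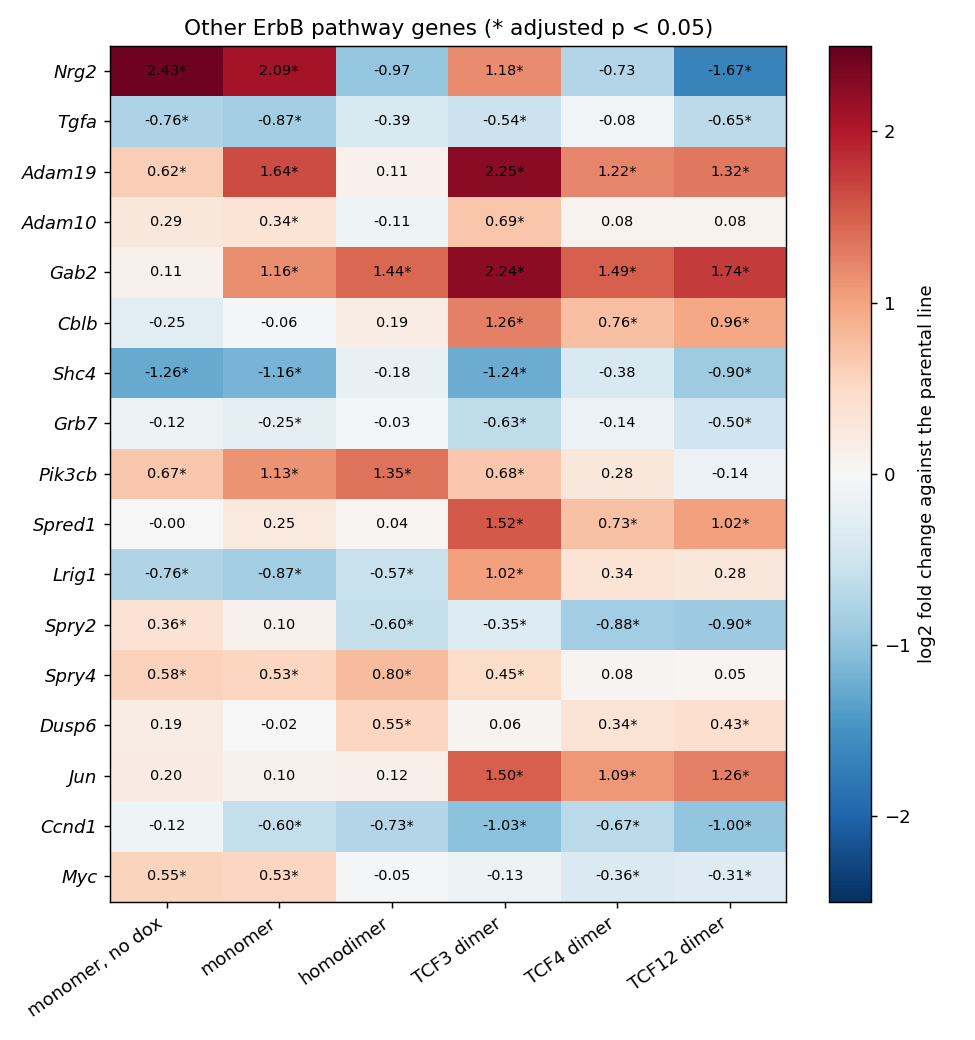
Log2 fold change against the parental line (colour and printed value) of other pathway genes (rows) in 6 groups (columns); an asterisk marks an adjusted p under 0.05 (edgeR, 21 samples). Gab2 is red in the 5 induced lines, Jun and Spred1 in the 3 heterodimer lines, and Nrg2 in the monomer, uninduced and TCF3 dimer lines.

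The genes with profiles nearest to each member are given by Pearson's r of log2(CPM + 0.5) over the 21 samples, which fall into 7 groups, so r mostly reflects group means. For Erbb4 these were Hdac9 (0.934), Frmd6 (0.933), Kirrel (0.912), Wipf1 (0.911) and Mex3b (0.908). Hdac9 averaged 3.54 CPM in the parental and 3.45 in the monomer line against 8.59 in the homodimer and 11.7 to 17.2 in the heterodimer lines, far more reads than Erbb4 itself. For Nrg1 they were Stat3 (0.971), Gdpd5 (0.968), the basement membrane collagen genes Col4a1 (0.966) and Col4a2 (0.964), and the laminin gene Lamb1 (0.961). For Hbegf they were Hs3st1 (0.949), Plet1 (0.944), Sparc (0.941), Aldh1l1 (0.941) and Cdca2 (0.941). Erbb2 was nearest to Zdhhc2 (0.968), Armcx2 (0.955) and Nsmf (0.952), Erbb3 to Slc25a23 (0.970), Celsr2 (0.969) and Ripk4 (0.945), and Egfr to Man1a (0.832) and Lemd3 (0.820). Ranking by the 7 group means instead left 0 of the 5 names for Erbb4 and Hbegf, 1 for Nrg1, 2 for Erbb2 and Egfr and 3 for Erbb3. Among the members, Nrg1 and Hbegf had r = 0.861, Erbb2 and Hbegf r = -0.838 and Erbb2 and Nrg1 r = -0.761 over the same 21 samples, which share libraries.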

How the data were processed

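RNA was measured by Illumina TruSeq mRNA sequencing of 21 samples in 7 groups of 3. Each deposited table holds unscaled counts by gene symbol. The submitters' processing notes name FastQC, TopHat2, HTSeq and the mm10/GRCm38 build, with roles, versions, annotation and strand setting not given in the sources used here. In 18 tables, 25 symbols had been turned into dates, but not in the 3 tables labelled TCF12 dimer, so tables were joined by position.

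Counts were tested with edgeR 4.0.16 (quasi-likelihood F-test, R 4.3.3) in one fit of 21 samples with a mean per group, TMM factors and the default filterByExpr filter (count of 10, total of 15), with Benjamini-Hochberg adjustment over all genes tested. A gene passed at an adjusted p under 0.05. Standard errors come from the F statistic. Floors are 3 counts. The procedure was tested on simulated data. The members and gene lists were chosen with earlier results of these data known. All 6 members are named, with up to 3 pathway genes per direction, list and comparison (largest change among passing genes with separated samples and at least 1 CPM in the higher group) and, chosen after their values were seen, Adam17, Cdh1, Cldn6, Foxa2, Gata6, Grhl2, Hand1, Hand2, Kdr, Krt8, Pdgfra, Snai2, Ttr and genes that did not pass. Values of a listed gene that the rule would name are left out. Positions and exon lengths are from GENCODE M21.

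Alternatives were RLE factors, DESeq2 1.42.0, no filter, library size only, a filter of 1 CPM in 3 samples, only the groups compared, a replicate block, leaving out each sample, the uninduced line as control, and the 20-sample fit. No pairing of samples by replicate number was seen.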

Additional observations from a re-analysis of the deposited data

How the results depend on the processing

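The same side of the threshold and direction was kept, or for Erbb4 the value moved by less than the spread, in 885 of 972 recomputed values for single genes, and 194 of 227 recomputed counts of passing genes stayed within 1.5 times the reported count. Shares in brackets are of all genes that passed in the same fit. Fits of only the groups compared gave 2 passing genes (23.4%) for the homodimer, 2 (29.7%) for the TCF4 dimer, 0 (6.11%) for the TCF12 dimer and 5 (38.1%) for the uninduced line against the parental line, 1 (5.20%) for induction of the monomer, 4 (42.2%) for the TCF3 dimer against the monomer, 1 (9.24%) for heterodimers against the homodimer, 0 (0%) for TCF12 against TCF4 and 1 (1.72%) for TCF3 against TCF12. Library size alone gave 0 (11.6%) for the TCF4 dimer against the parental line and 0 (2.14%) for TCF12 against TCF4, no filter gave 1 (4.07%) for the homodimer, and DESeq2 gave 5 (20.2%) for the uninduced line. Leaving out single samples gave, against the parental line, 0 to 2 for the homodimer (6.30% to 20.4%) and TCF4 (8.57% to 28.1%), 1 to 2 for TCF12 (17.8% to 42.7%) and 3 to 5 for the uninduced line (13.9% to 36.8%). It gave 0 to 1 for induction (1.19% to 6.17%), 1 to 4 for TCF3 against the monomer (14.3% to 40.9%), 0 to 2 for heterodimers against the homodimer (9.04% to 28.9%) and 0 to 1 for TCF12 against TCF4 (0.339% to 33.7%). The cause was not tested.

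With the uninduced line as control, log2 differences changed sign for Egfr (0.13 homodimer, 0.48 TCF3, 0.18 TCF4, 0.22 TCF12), Erbb2 (0.62 homodimer, 0.57 TCF3), Nrg1 (-0.014, TCF3) and Hbegf (-0.25, TCF3). Erbb2 with the TCF4 dimer against the parental line gave -0.0087 with RLE factors and -0.0066 with DESeq2. Leaving out single samples also turned differences near 0: Erbb2 with the TCF4 dimer ranged from -0.035 to 0.049, and on induction of the monomer Egfr ranged from -0.20 to 0.10, Erbb2 from -0.12 to 0.048 and Nrg1 from -0.18 to 0.053.

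Same-numbered samples had a mean correlation of deviations of 0.0224 over 63 pairs and differently numbered ones -0.0105 over 126 pairs. No pairing by number was seen. Single same-numbered pairs ranged from -0.254 to 0.377, so these means cannot show that no samples were paired. A replicate block gave 4 passing genes (19.9% of all genes) instead of 3 for the uninduced line against the parental line, where Egfr passed (-0.60, edgeR adjusted p = 0.034), and moved no other count of passing genes by over 1.5 times. Depth limits Erbb4, which held at most 19 counts in a library.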
